A study of Saccharomyces cerevisiae with 18 samples.

Results

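The large ribosomal subunit of yeast is built in the nucleolus on a precursor rRNA that RNA polymerase I transcribes, and it leaves the nucleus as a pre-60S particle that matures further in the cytoplasm. Assembly factors join and leave these particles in turn. They unwind and methylate the rRNA, hold its folded domains together, place ribosomal proteins and prepare the particle for export. In yeast the transcripts of these factors are known as part of the ribosome biogenesis regulon, whose promoters are held down by repressors when nutrients run out.

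The large ribosomal subunit assembly factors described here are 48 genes, chosen as a named list of pre-60S factors and matched by current or older symbol. All 48 were found among the 5269 genes tested, each by 1 probe printed as 2 spots. The list holds 9 DEAD-box RNA helicases, 3 GTPases and 2 rRNA methyltransferases, 5 early pre-60S and Noc proteins, the 3 subunits of the Nop7 complex, and 4 Brix-domain proteins. It also holds 5 RNA-binding proteins, 5 factors that resemble ribosomal proteins or are released in the cytoplasm, and 12 further nucleolar factors. Their transcripts were measured in a time-course in which glucose-depleted wild-type (WT) cells entered fresh synthetic complete (SC) medium with 2% glucose.

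RNA of 2 independent WT cultures, a and b, was taken immediately after inoculation, which is 0 min, and at 8 later times: 3, 7.5 and 15 min, then 30 and 60 min, and last 110, 150 and 300 min. Every culture carries the same labels, the strain BY4742 and the modification wt-matA, and every array compares 1 culture at 1 time with a common pool of WT RNA on long-oligonucleotide probes. A value is therefore a log2 ratio of the sample to this pool, where 0 means the level of the pool. In such bulk RNA, fewer cells of a kind and less RNA per cell cannot be told apart.

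The labels go against the data in 2 places. The a-cell genes, which only cells of mating type a express, had a mean log2 ratio of 3.30 to 4.38 on the 16 arrays from 3 min on and of 2.44 on the 0 min array of culture b. On the same arrays the alpha-cell genes had -5.06 to -4.24 and -4.05. LYS2, a lysine biosynthesis gene, had 3.11 to 4.47 on the later arrays, and MET17, a methionine biosynthesis gene, had -5.28 to -4.33. BY4742 is known as an alpha strain that lacks LYS2. The strain label thus goes against these values, whereas wt-matA, read as mating type a, does not. The second place is the 0 min array of culture a. It gave 4.63 for the alpha-cell genes and -2.31 for the a-cell genes as labelled, and its ratios correlated at -0.92 across genes with those of the 0 min array of culture b, against 0.61 to 0.97 between the cultures at later times. Per the labels, Cy5 marks the sample at 0 min in either culture, whereas from 3 min on culture a is in Cy3 and culture b in Cy5. LYS2 and MET17 had -3.31 and 5.60 on it as labelled, against 3.29 and -5.00 on the 0 min array of culture b. As labelled, this array thus runs opposite to all other arrays for the mating-type genes, LYS2 and MET17. Whether its dye label is wrong was not tested. The values below have its ratios turned, and for changes against 0 min the counts and the fold changes of named genes are also given as labelled. With the array turned, culture and dye cannot be told apart.

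At 0 min, most of the assembly genes were below the pool. In both cultures 33 of the 48 were below it and 7 were above it, while 44% of all genes tested were above it in both. The median log2 ratio of the 48 was -0.36 and -0.31 (cultures a and b). As labelled, the array of culture a has the opposite sign for every gene, and 7 genes were above and 1 below the pool on both arrays. At 3 min, all 48 genes were above the pool in both cultures, with medians of 0.77 and 0.73, while 46.1% of all genes tested were above it in both. The same held at 7.5, 15, 30 and 60 min, where again 48 of 48 were above the pool in both cultures, beside 41.4 to 46.7% of all genes. The medians of cultures a and b were 0.81 and 0.83 at 7.5 min, 0.80 and 0.76 at 15 min, 0.91 and 0.83 at 30 min, and 0.49 and 0.50 at 60 min. At the later times they were 0.33 and 0.28 at 110 min, 0.36 and 0.30 at 150 min, and 0.35 and 0.24 at 300 min. The assembly transcripts were therefore high from 3 to 30 min and closer to the pool afterwards. At 300 min 37 of 48 were still above it in both cultures, beside 24.9% of all genes. The median over all genes tested lay between -0.03 and 0.02 on every array, since the loess normalisation centres each array on its genes. It is therefore no measure of the total mRNA.

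**Figure D1:**
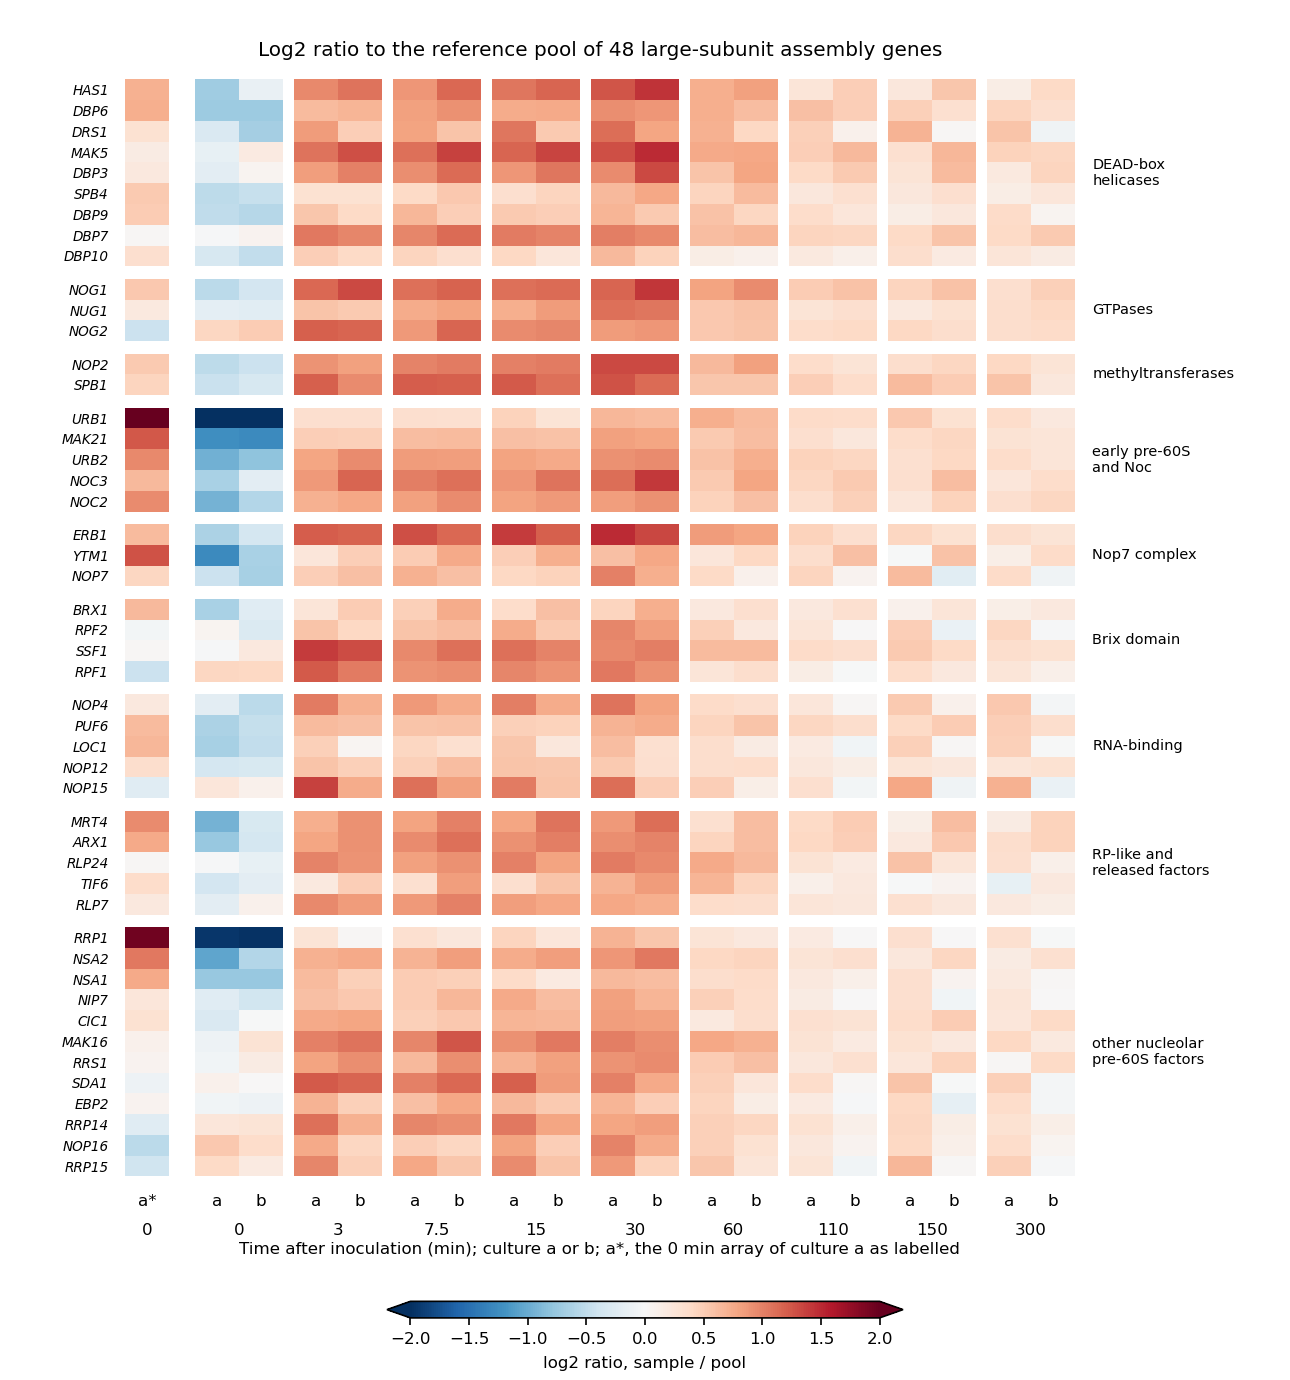
Log2 ratio of sample to pool for each of the 48 assembly genes (rows, grouped by role and ordered by their change at 30 min) on each of the 18 arrays (columns, culture a and b side by side, times from 0 to 300 min in their order). The column a* shows culture a at 0 min as labelled; the other columns show all 48 genes above the pool from 3 to 60 min, and URB1 and RRP1 lowest at 0 min.

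With the array turned, the list became more even after 0 min. The means of both cultures spanned -2.16 for URB1 to 0.47 for NOG2 at 0 min, a range of 2.64. At 30 min they spanned 0.43 for NOP12 to 1.41 for ERB1, a range of 0.99, and at 300 min 0.02 for TIF6 to 0.46 for DBP7, a range of 0.44. At 0, 3, 30 and 300 min the SD over the 48 genes was 0.52, 0.30, 0.24 and 0.09. Over all genes tested it was 1.16, 0.95, 0.71 and 0.28 at the same times, so that all genes narrowed too. The 0 min values of this spread depend on the direction of the array. As labelled, the means at 0 min ran from -0.19 for DRS1 to 0.31 for MRT4, a range of 0.50 with an SD of 0.13 (0.24 over all genes), and the list was wider at 3 min (range 1.21) than at 0 min. Between 3 and 300 min the list narrowed in either case.

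Of the 48 genes, 31 had their highest mean ratio at 30 min, 9 at 7.5 min and 5 at 3 min, while 2 (NOP12 and RRP15) had it at 15 min and 1 (URB1) at 60 min. No gene had it at 0, 110, 150 or 300 min. Among all genes tested, 10.6% had their highest mean at 30 min and 31.9% at 0 min. The counts for the 48 genes are the same as labelled. For 35 of the 48 the highest ratio fell at the same time in both cultures. With the array turned, the lowest mean was at 0 min for 42 genes, beside 32.6% of all genes tested. RPF1, NOP15, RRP14, RRP15 and NOP16 had it at 110 min, and NOG2 at 300 min. These 6 genes already stood above the pool at 0 min in both cultures. As labelled, 42 genes again had their lowest mean at 0 min, these 6 among them, beside 18.7% of all genes tested. HAS1, YTM1, BRX1, MRT4 and TIF6 then had it at 300 min and LOC1 at 110 min.

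Each time was then compared with 0 min. A gene was called higher at a Benjamini-Hochberg adjusted p under 0.01 over all genes tested and a fold change (FC) over 1.7, by limma. At 3 min 38 of 48 assembly genes were higher, beside 12.2% of all genes tested, with a median log2 FC of 1.07. At 7.5 min 39 were higher (14.7% of all genes, median 1.08). The count at 15 min was 37 (15.0%, median 1.0), and at 30 min it was 40 (17.4%, median 1.2). Fewer genes passed at the later times. At 60 min 25 were higher (19.0% of all genes, median 0.80) and at 110 min 20 (19.9%, median 0.60). The count at 150 min was again 20 (19.7%, median 0.68), and 17 genes were left at 300 min (19.3%, median 0.63). The share of the list thus stood well above that of all genes up to 30 min and came nearer to it at 110 to 300 min. Without the 0 min array of culture a, 13 genes were higher at 110 and at 150 min, and with the arrays scaled to external control spots 34 to 42 were higher from 60 to 300 min. The medians over all genes tested were between -0.01 and 0.03 in these comparisons, where the loess holds them near 0. With the arrays scaled to external control spots they were 0.19 to 0.48. No assembly gene was called lower at any time, and at an unadjusted p under 0.05 1 was lower at 110 min and 1 at 300 min, with none at the other times. For counts at an unadjusted p, here and below, the share of all genes is not given.

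As labelled, the 2 opposite 0 min arrays largely cancel, and a change against 0 min is then close to the ratio to the pool. In that direction 8 of 48 passed at 3 min (1.97% of all genes) and 9 at 7.5 min (2.33%), while 6 did so at 15 min (1.44%) and 12 at 30 min (1.52%). At 60 min limma called 0 assembly genes (0.133% of all genes) and at 110, 150 and 300 min again 0 (0%). At an unadjusted p under 0.05, 15, 3, 5 and 2 were higher at these 4 times and none was lower. As labelled, the 48 genes had a median log2 FC of 0.67 at 3 min and of 0.82 at 30 min, and 0.22 was left at 300 min. From 3 to 30 min all 48 fold changes were above 1 in either direction of the array. In each culture on its own (array turned), the median difference of cultures a and b at 3 min was 1.14 and 1.07, and at 30 min it was 1.24 and 1.23. All 48 genes were higher in both cultures at either time, beside 44% of all genes tested at 3 min and 45.3% at 30 min.

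**Figure D2:**
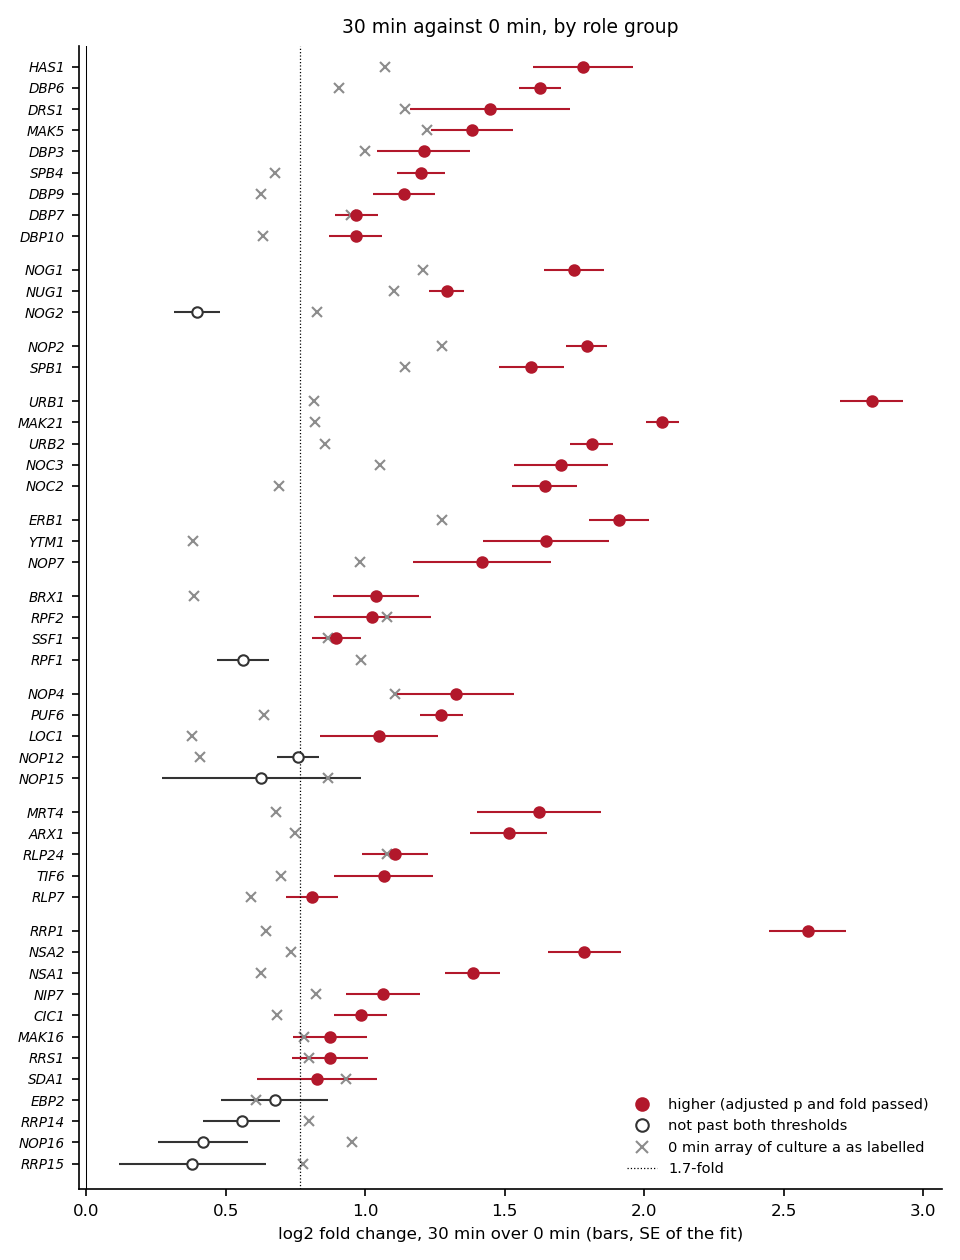
Log2 fold change at 30 min over 0 min (horizontal axis) for each assembly gene (rows, by role group), with the standard error of the fit. Filled points mark the 40 genes past both thresholds, open points the 8 that were not, and crosses the value with culture a at 0 min as labelled; every point and cross lies right of 0.

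The 9 DEAD-box helicases, which remodel rRNA with the energy of ATP, were all higher at 3 and at 30 min. HAS1, whose product works on precursors of both subunits, had ratios of 1.26 and 1.45 (cultures a and b) at 30 min, against -0.71 and -0.15 at 0 min. The log2 FC was 1.78 ± 0.18 (SE, n = 2 each, adjusted p = 3.1e-06 by limma) and 1.07 as labelled. DBP10 had the smallest change of the group, with 0.65 and 0.46 at 30 min, against -0.33 and -0.50 at 0 min, a log2 FC of 0.97 ± 0.10 (0.63 as labelled). Both helicases thus separated the 2 times in both cultures. At 300 min against 0 min only 1 of the 9 was still called, DBP6, with a log2 FC of 1.12 (0.40 as labelled). As labelled, limma called 2 and 3 of the 9 higher at 3 and 30 min and 0 at 300 min.

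Among the 3 GTPases, which act as switches on pre-60S particles, NOG1 and NUG1 were higher at 30 min and NOG2 was not. NOG1 had 1.16 and 1.44 at 30 min, against -0.54 and -0.36 at 0 min, a log2 FC of 1.75 ± 0.11 (adjusted p = 4.71e-08 by limma, 1.21 as labelled). NOG2, whose product acts late in the nucleus before export, had 0.85 and 0.89 at 30 min, against 0.43 and 0.52 at 0 min. Its log2 FC of 0.40 ± 0.08 had an adjusted p of 0.000933 by limma but a fold under the threshold. At 30 min itself the ratios of the 2 genes were closer than at 0 min. Since NOG2 is below the pool at 0 min on the array as labelled, its log2 FC as labelled was larger, at 0.83. The calls at 30 min were NOG1 and NUG1 also as labelled.

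Both rRNA methyltransferases were higher at every time from 3 to 30 min and still at 300 min. NOP2 had 1.32 and 1.32 at 30 min, against -0.52 and -0.43 at 0 min, a log2 FC of 1.79 ± 0.07 (adjusted p = 2.15e-09 by limma, 1.27 as labelled). SPB1 had 1.27 and 1.13 at 30 min, against -0.45 and -0.34 at 0 min, a log2 FC of 1.59 ± 0.12 (1.14 as labelled). As labelled, both passed the thresholds at 30 min and neither did at 3 or 300 min.

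With the array turned, the early pre-60S and Noc proteins had the highest median change of the groups at 30 min. All 5 were higher at 3 and at 30 min and 4 of 5 at 300 min, with a median log2 FC of 1.81 at 30 min. This rank rests on the direction of the array. As labelled, limma called 0 of the 5 at these times (with an unadjusted p under 0.05 for 1, 1 and 0 of them at 3, 30 and 300 min). Their median of 0.82 at 30 min was then below that of the methyltransferases (1.21), the GTPases (1.1) and the Nop7 complex (0.98). It was also below that of the DEAD-box helicases and of the Brix-domain proteins. The products of these 5 genes are known from the earliest particles. URB1 had 0.34 and 0.34 at 3 min, against -2.0 and -2.33 at 0 min, and 0.66 and 0.64 at 30 min. Its log2 FC was 2.50 ± 0.11 at 3 min, 2.81 ± 0.11 at 30 min (adjusted p = 1.72e-09 by limma) and 2.46 ± 0.11 at 300 min. With the array turned, URB1 had the largest fold change of the 48 genes at each of the 8 times. Its ratio stood apart at 0 min and not at 30 min. As labelled, the 0 min arrays gave 2.0 and -2.33 for URB1, and its log2 FCs at 3, 30 and 300 min were 0.51, 0.82 and 0.46, each ± 0.95. NOC2 had 0.84 and 0.92 at 30 min, against -0.95 and -0.58 at 0 min, and its log2 FC of 1.64 ± 0.12 was the smallest of the group (0.69 as labelled).

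The 3 subunits of the Nop7 complex, which is needed to cut the spacers of the rRNA precursor, were higher at 3 and at 30 min, and as labelled limma called 0 at 3 min (1 with an unadjusted p under 0.05) and ERB1 alone at 30 min. ERB1 had 1.50 and 1.33 at 30 min, against -0.64 and -0.36 at 0 min, a log2 FC of 1.91 ± 0.11 (adjusted p = 2.17e-08 by limma, 1.28 as labelled). NOP7 had 1.0 and 0.73 at 30 min, against -0.44 and -0.67 at 0 min, and a log2 FC of 1.42 ± 0.25 (0.98 as labelled). The cultures differed more for NOP7 than for ERB1 at 150 min, 0.63 against -0.23 (cultures a and b), and the SE of NOP7 was larger.

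**Figure D3:**
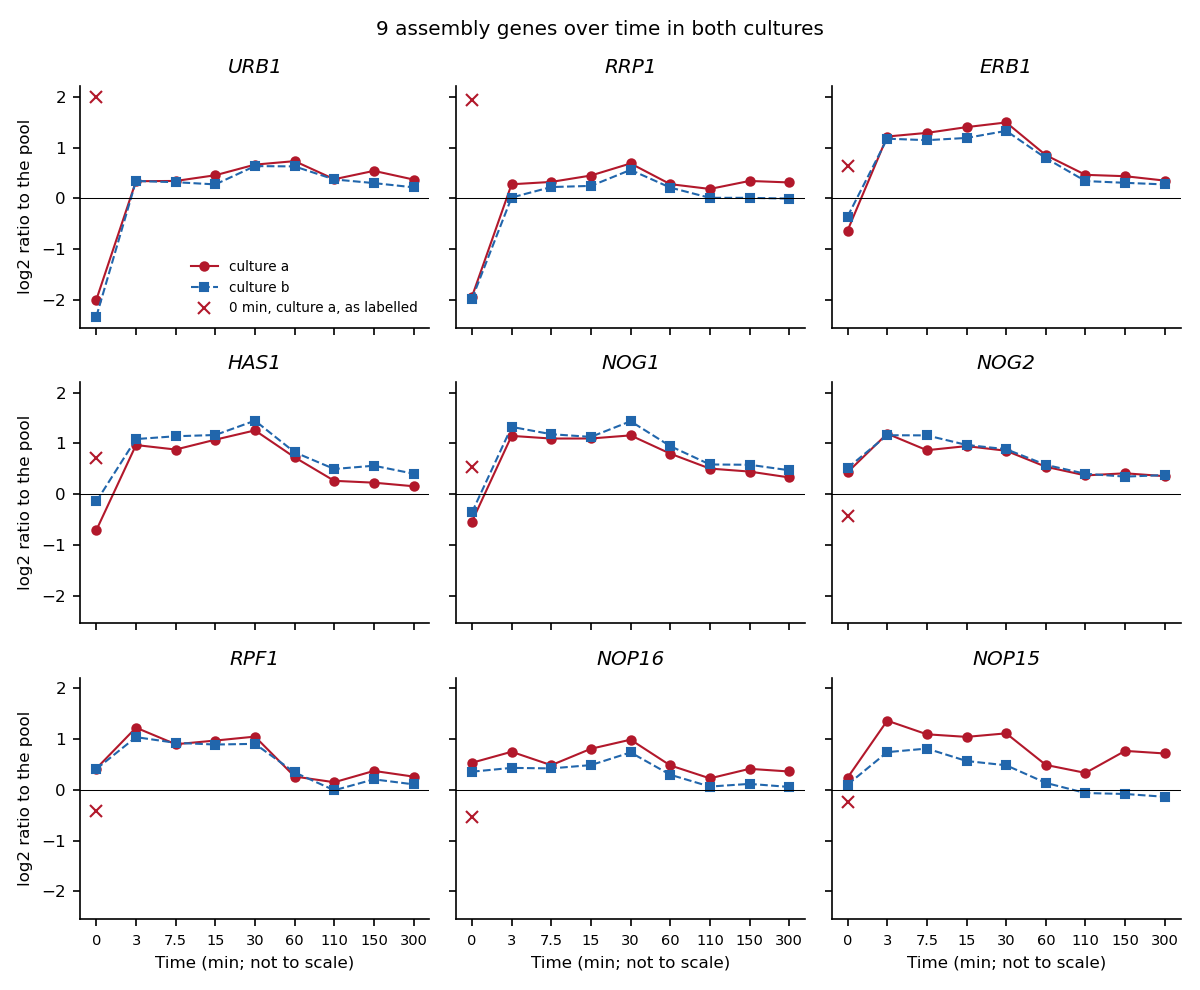
Log2 ratio to the pool (vertical axis) over the 9 times (horizontal axis, evenly spaced and not to scale) for 9 assembly genes, circles for culture a, squares for culture b and a cross for culture a at 0 min as labelled. URB1 and RRP1 lie near -2 at 0 min, NOG2, RPF1 and NOP16 lie above 0 there, and NOP15 is higher in culture a than in culture b at every time.

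Of the 4 Brix-domain proteins, which bind rRNA in pre-60S particles, SSF1, RPF2 and BRX1 were higher at 30 min. BRX1 had 0.45 and 0.73 at 30 min, against -0.65 and -0.24 at 0 min, a log2 FC of 1.04 ± 0.15 (0.39 as labelled). SSF1 had 1.40 and 1.31 at 3 min, against -0.03 and 0.22 at 0 min, and 0.95 and 1.03 at 30 min. Its log2 FC was thus 1.26 ± 0.09 at 3 min and 0.90 ± 0.09 at 30 min (1.23 and 0.87 as labelled). RPF1 had 1.23 and 1.04 at 3 min and 1.05 and 0.91 at 30 min, against 0.42 and 0.41 at 0 min, with a log2 FC of 0.56 ± 0.09 at 30 min (0.98 as labelled). SSF1 and RPF1 had their highest ratio at 3 min in both cultures. As labelled, SSF1 and RPF1 were called at 3 min and SSF1 at 30 min.

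The 5 RNA-binding proteins gave 4 higher genes at 3 min and 3 at 30 min, and as labelled limma called 0 at either time (3 and 4 with an unadjusted p under 0.05). NOP4 had 1.08 and 0.81 at 30 min, against -0.22 and -0.55 at 0 min, a log2 FC of 1.32 ± 0.21 (1.11 as labelled). NOP12 had 0.52 and 0.33 at 30 min, against -0.35 and -0.31 at 0 min, and its FC of 1.69 fell just under the threshold, with an adjusted p of 2.47e-06 by limma. As labelled its log2 FC was 0.41 ± 0.18. NOP15, whose product binds an internal spacer of the precursor, had 1.12 and 0.49 at 30 min, against 0.24 and 0.10 at 0 min. Its log2 FC of 0.63 ± 0.36 (adjusted p = 0.136 by limma) did not pass (0.87 ± 0.38 as labelled), with the highest SE among the 8 genes not called at 30 min.

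All 5 factors that resemble ribosomal proteins or are released in the cytoplasm were higher at 30 min, and 4 of 5 at 3 min. As labelled, 1 of 5 was higher at either time. MRT4, whose product resembles the stalk protein P0 and holds its place, had 0.87 and 1.12 at 30 min, against -0.94 and -0.31 at 0 min, a log2 FC of 1.62 ± 0.22 (0.68 as labelled). RLP7, which resembles the ribosomal protein L7, had 0.77 and 0.72 at 30 min, against -0.22 and 0.09 at 0 min, a log2 FC of 0.81 ± 0.09 (0.59 as labelled). RPL24A, RPL24B, RPP0 and RPL7A, the ribosomal proteins that such factors resemble, had 69.4 to 100% of their spot readings above the saturation limit in a channel, and no fold change is given for them. None of the spots of the 48 assembly genes was saturated, and all of them were above the local background.

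Of the 12 further nucleolar factors, 8 were higher at 3 and at 30 min and 3 at 300 min, and their log2 FCs at 30 min ran from 0.38 to 2.59. As labelled, 2 were higher at 3 and at 30 min and 0 at 300 min, and the log2 FCs at 30 min ran from 0.61 to 0.95. RRP1 had 0.69 and 0.56 at 30 min, against -1.94 and -1.98 at 0 min, a log2 FC of 2.59 ± 0.14 (adjusted p = 1.54e-08 by limma) and 0.65 ± 0.87 as labelled. RRP15 had 0.87 and 0.46 at 30 min, against 0.40 and 0.18 at 0 min, a log2 FC of 0.38 ± 0.26 (0.78 as labelled). NOP16 had 0.99 and 0.74 at 30 min, against 0.54 and 0.36 at 0 min, a log2 FC of 0.42 ± 0.16 (0.95 as labelled). RRP1 thus had far lower ratios than RRP15 and NOP16 at 0 min, and the 3 genes lay close together at 30 min. RRP14 and EBP2 had log2 FCs of 0.56 ± 0.14 and 0.68 ± 0.19 at 30 min (0.80 and 0.61 as labelled), both under the fold threshold.

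The 8 genes that were not called higher at 30 min were thus NOG2, RPF1, NOP12, NOP15, EBP2, RRP14, RRP15 and NOP16. Of these, 5 passed the adjusted p and missed the fold. At 0 min 6 of the 8 were above the pool in both cultures, whereas this was so for 1 (SDA1) of the 40 genes that were called, of which 31 were below the pool in both. As labelled, 0 of the 8 were above the pool on both arrays, and their log2 FCs at 30 min were 0.41 to 0.98 with none called by limma. These counts share the 0 min arrays with the fold changes and are a description of where the small changes arose.

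Factors known to bind each other in pre-60S particles did not change by the same amount. This grouping was made after the values were seen. Rrp1, Nsa1, Mak16 and Rpf1 form 1 module of the early particle, and at 30 min RRP1 had a log2 FC of 2.59 and NSA1 of 1.39, while MAK16 had 0.87 and RPF1 0.56. Ssf1, Rrp14 and Rrp15 form another, with 0.90, 0.56 and 0.38. Rpf2 and Rrs1, which bring in the 5S particle, had 1.03 and 0.87, and Brx1 and Ebp2 had 1.04 and 0.68. As labelled, RRP1, NSA1, MAK16 and RPF1 had 0.65, 0.63, 0.78 and 0.98, SSF1, RRP14 and RRP15 had 0.87, 0.80 and 0.78, RPF2 and RRS1 had 1.08 and 0.80, and BRX1 and EBP2 had 0.39 and 0.61. The order of RRP1 and its partners and of BRX1 and EBP2 thus turns with the direction of the 0 min array, and the spread of the SSF1 module shrinks. The differences between partners were not tested.

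The steps between later times do not use the 0 min arrays and were fitted on the 16 arrays from 3 min on. From 3 to 30 min the median changed little between neighbouring times. Limma called 0 of the 48 in either direction at 7.5 min against 3 min (0.512% of all genes called, median log2 FC 0.04), at 15 min against 7.5 min (0.683%, median -0.03) and at 30 min against 15 min (4.02%, median 0.12). At an unadjusted p under 0.05, 3 genes were higher and 3 lower in the first of these steps, none in the next, and 8 were higher at 30 min against 15 min. In that last step 36 of 48 genes were higher in both cultures and 6 lower, against 41.6% and 42.5% of all genes tested. The largest of these 3 sets of differences was 0.44, for NOP7 at 30 min against 15 min.

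The decline came between 30 and 110 min. At 60 min against 30 min the median log2 FC was -0.37, and 46 of 48 genes were lower in both cultures, against 49.7% of all genes tested. No gene passed the thresholds (0 of 48, beside 6.95% of all genes called), while 36 were lower and 0 higher at an unadjusted p under 0.05 by limma. These unadjusted counts, here and at the next step, have no share of all genes beside them. At 110 min against 60 min the median was -0.21 and 42 of 48 were lower in both cultures, against 42.2% of all genes. Again 0 passed (5.62% of all genes called), and 17 were lower at an unadjusted p under 0.05. After that the ratios stayed level. At 150 min against 110 min 0 were called (0.0569% of all genes, median 0.04, with an unadjusted p under 0.05 for 1 higher gene). At 300 min against 150 min 0 were called (0.285%, median -0.06, none at an unadjusted p under 0.05).

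Over the whole span from 30 to 300 min the decline was large enough for single genes to pass. At 300 min against 30 min, 10 of 48 genes were lower and 0 higher, beside 6.72% of all genes called lower. The median log2 FC was -0.62, beside 0.01 over all genes, which the loess holds near 0. All 48 were lower in both cultures, against 43.5% of all genes tested. An unadjusted p under 0.05 was reached by 43 lower genes, again without a share of all genes beside it. With the arrays scaled to external control spots, 6 genes were called lower, beside 255 of all 5269 genes. ERB1 had 0.35 and 0.27 at 300 min, against 1.50 and 1.33 at 30 min, a log2 FC of -1.10 ± 0.09 (adjusted p = 4.23e-06 by limma). HAS1 had 0.16 and 0.40 at 300 min, against 1.26 and 1.45 at 30 min, a log2 FC of -1.07 ± 0.14. Both had also been among the highest ratios at 30 min. Since the 30 min arrays enter the fold change as well, this is a description.

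NOP2 had 0.41 and 0.27 at 300 min, against 1.32 and 1.32 at 30 min, a log2 FC of -0.97 ± 0.07. NOC3 had 0.25 and 0.37 at 300 min, against 1.12 and 1.42 at 30 min, a log2 FC of -0.96 ± 0.15. MAK5, a DEAD-box helicase, had 0.46 and 0.42 at 300 min, against 1.29 and 1.49 at 30 min, a log2 FC of -0.95 ± 0.13. These genes come from 3 role groups. They stand next to each other in the order of size, so their similar values say nothing about the groups. NOG1 had a log2 FC of -0.90 ± 0.10, and the remaining 4 genes, DBP3, SPB1, RPF1 and RLP24, had -0.81 to -0.78. The smallest changes were -0.15 ± 0.08 for NOP12 and -0.23 ± 0.22 for LOC1. URB1, with the largest change against 0 min, had -0.36 ± 0.09. None of the 12 further nucleolar factors and none of the 5 RNA-binding proteins passed.

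**Figure D4:**
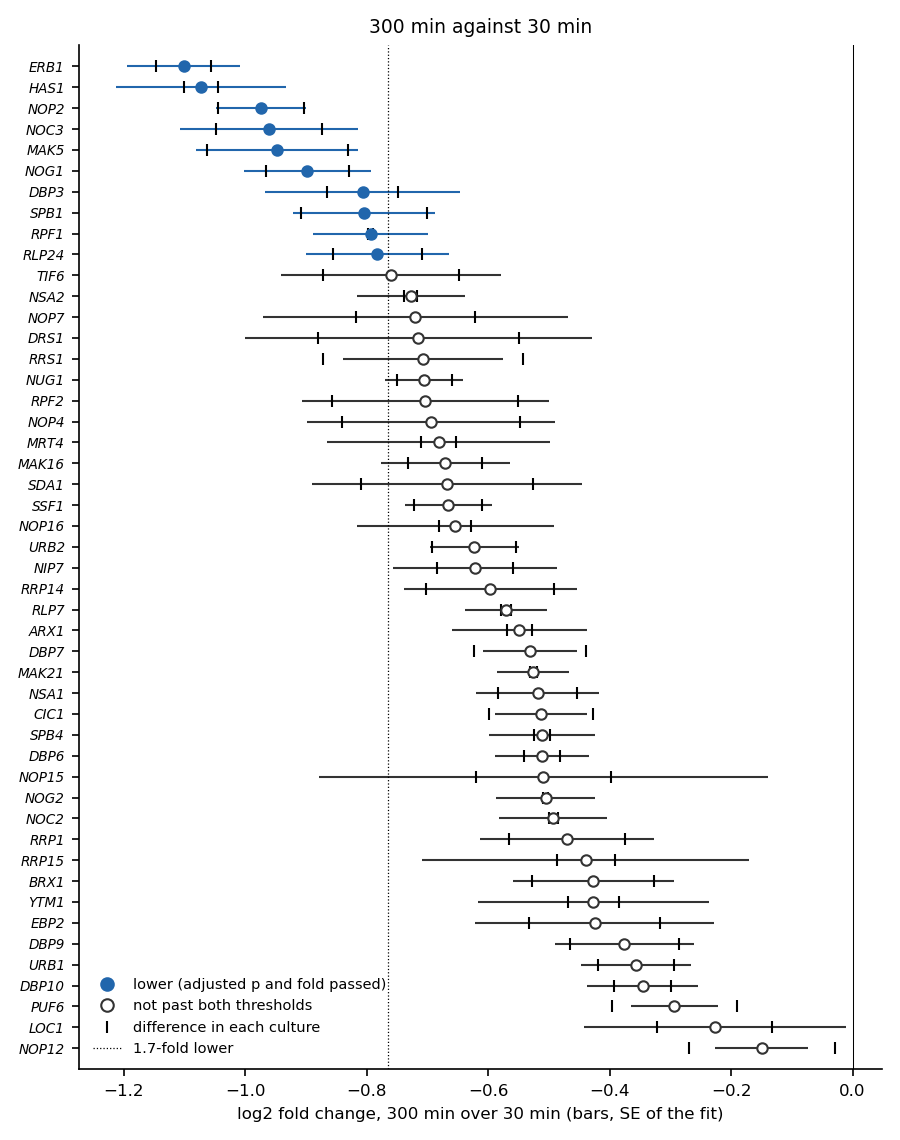
Log2 fold change at 300 min over 30 min (horizontal axis) for each assembly gene (rows, ordered by size), with the standard error of the fit and ticks for the difference in each culture. Filled points mark the 10 genes past both thresholds, and all 48 points lie left of 0.

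In the comparisons with 0 min (array turned), 16 of the 48 genes were called higher at all 8 later times. The share of all genes called at all 8 is not given here. At 300 min 17 assembly genes were called, beside 19.3% of all genes, and all 17 had been called at 30 min. URB1 and RRP1 were among them, with log2 FCs of 2.46 ± 0.11 and 2.12 ± 0.14 at 300 min (0.46 ± 0.95 and 0.18 ± 0.87 as labelled). NOP2, SPB1, ERB1 and NOG1 had 0.79 to 0.85 at 300 min (0.17 to 0.34 as labelled) and were called both higher than at 0 min and lower than at 30 min. NOG2, RPF1, RRP14, RRP15 and NOP16 had -0.24 to -0.04 at 300 min against 0 min (0.19 to 0.34 as labelled) and did not pass. As labelled, none of the 48 was called by limma at 60 min or later.

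The cultures differed in a lasting way for some of the genes, about as often as among all genes tested. At all 8 later times 11 genes had a higher ratio in culture b than in culture a and 9 the reverse, while 23.4% and 17.8% of all genes did so. NOP15 had the widest gap, at 3 min 1.37 against 0.74 (cultures a and b) and at 300 min 0.72 against -0.14. DRS1 and RRP15 were also higher in culture a, and HAS1, MRT4 and YTM1 were higher in culture b. The median absolute difference between the cultures over the 48 genes was 0.11 to 0.21 from 3 to 300 min, and over all genes 0.09 to 0.20. Culture and dye cannot be told apart in these differences.

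**Figure D5:**
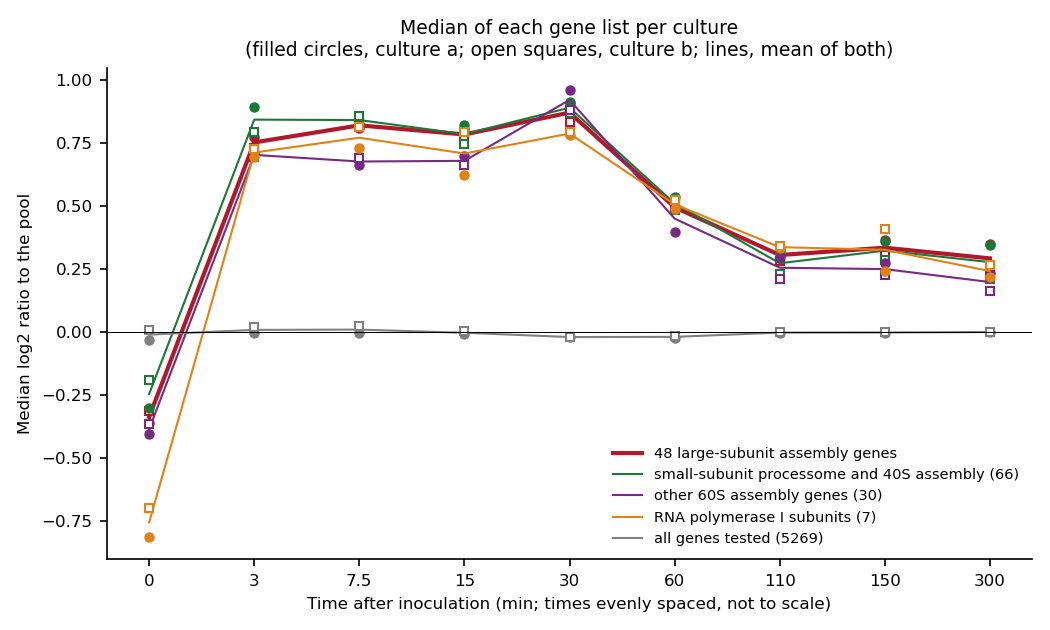
Median log2 ratio to the pool (vertical axis) at the 9 times (horizontal axis, evenly spaced) for the 48 assembly genes, 3 other ribosome biogenesis lists and all 5269 genes tested, with a point for each culture and a line for their mean; the first array of culture a is turned. The 4 lists of ribosome biogenesis genes are below 0 at 0 min and above it from 3 min on. The median of all genes stays near 0, where the normalisation sets it on each array.

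Other genes of ribosome biogenesis are given for comparison. Of 30 measured genes among 32 listed as other 60S assembly genes, 17, 21 and 9 were higher than at 0 min at 3, 30 and 300 min. Of 66 genes of the small-subunit processome and 40S assembly, 47, 49 and 18 were higher at these times. All 7 subunits of RNA polymerase I measured were higher at 3 and 30 min and 5 at 300 min. The median log2 FCs at 30 min of these lists were 1.24, 1.13 and 1.48, beside 1.2 for the 48 assembly genes. As labelled, 0 of 30, 10 of 66 and 0 of 7 were higher at 3 min by limma, 6, 13 and 0 at 30 min, and 0 in each list at 300 min. An unadjusted p under 0.05 was reached by 18 of 30 and 3 of 7 at 3 min, by 3 of 7 at 30 min, and by 0, 4 and 0 at 300 min. The medians at 30 min were then 0.77, 0.81 and 0.67, beside 0.82 for the 48 assembly genes. At 300 min against 30 min, 9, 14 and 3 genes of the 3 lists were lower and none was higher, with medians of -0.63, -0.60 and -0.65, beside -0.62 for the 48 assembly genes. All 4 lists thus had a positive median at 30 min against 0 min and a negative one at 300 min against 30 min. No difference between the lists was tested.

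The known regulators of these promoters moved in different ways. TOD6, a repressor that binds the PAC element, had 1.17 and 1.18 at 30 min, against -0.13 and 0.21 at 0 min, a log2 FC of 1.14 ± 0.11 (adjusted p = 2.25e-06 by limma) and 1.0 ± 0.12 as labelled. DOT6, a repressor of the same element, had 0.01 and 0.29 at 30 min, against 1.39 and 1.71 at 0 min, a log2 FC of -1.40 ± 0.16 (adjusted p = 1.04e-05 by limma). As labelled, DOT6 had -0.01 ± 0.69. SFP1, an activator of ribosome biogenesis genes, had 0.95 and 0.90 at 30 min, against 1.18 and 1.16 at 0 min, a log2 FC of -0.25 ± 0.07 that did not pass the fold, and 0.93 ± 0.52 as labelled. STB3, which binds the RRPE element, had -0.41 ± 0.06, under the fold threshold, and 0.34 ± 0.35 as labelled. TOD6 was thus higher in either direction of the array, whereas the sign for SFP1 and STB3 depends on it.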

How the data were processed

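RNA was amplified, labelled with Cy3 or Cy5 and hybridised by the authors, who quantified mean spot intensities in ImaGene and normalised by print-tip loess without background subtraction. Limma 2.12.0 is listed in the processing notes of the submitters. The authors deposited the scanner intensity values of 15552 spots per array and a table of log2 ratios, which were checked against the values computed here (r at least 0.9998, slopes 1 to 1.002, column medians -0.0142 to 0.043). The scale and direction of this table follow from that, whereas any centring after the loess stays unknown. The gene-specific dye bias was not corrected in this time-course, per the Methods.

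Log2 ratios were computed from the intensities in R 4.3.3 with limma 3.58.1 (span 0.4, control spots and spots over 2 to the power 15 at weight 0). Between 97.9 and 99.3% of gene spots were above background by 2 SD, and precision is limited by how many arrays there are. Of 6388 gene probes 5326 carry 1 gene name and 1062 none. Times were compared with 0 min on 18 arrays (9 residual degrees of freedom), and later times with each other on 16 (8 degrees). The model was tested on simulated data. The members and lists were chosen with earlier results of these data known. Named genes are, per role group, those with the largest and smallest change at 30 min, those not called there, up to 6 called per later step, the promoter regulators, NOP2, ERB1, SSF1 and NOG1; others were named after their values were seen. The cultures pair the arrays, since in the Methods a time is set against 0 min of its own cultures; culture differences correlated across genes at 0.26 to 0.90 between times (array turned). The promoter search was not run here.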

Additional observations from a re-analysis of the deposited data

How the results depend on the processing

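Turning or not turning the first array of culture a moved the counts most. As labelled, 8, 9, 6 and 12 assembly genes were higher at 3, 7.5, 15 and 30 min and 0 at 60, 110, 150 and 300 min. Of 100 single values, 37 kept their call, 60 lost it and 1 gained it, while SFP1 and STB3 at 30 min turned to 0.93 and 0.34. Leaving out each array of the 2 times in turn gave 35 to 38 higher genes at 3 and at 7.5 min, 33 to 38 at 15 min, 36 to 40 at 30 min, 22 to 26 at 60 min, 13 to 21 at 110 and at 150 min, and 12 to 20 at 300 min. The lowest count at 110 and 150 min, 13, came without the 0 min array of culture a, and the cause was not tested. The 10 lower genes at 300 min against 30 min were then 8 to 13. NOP16 at 3 min, not called, had -0.013 without the 3 min array of culture a and 0.30 without that of culture b.

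With every array shifted to the external control spots, the median of all genes against 0 min was 0.19 to 0.48, in place of -0.01 to 0.03. The shift gave 42, 34, 37 and 35 higher genes at 60, 110, 150 and 300 min, beside 1871, 1756, 1875 and 1881 of all 5269. At 300 min against 30 min it gave 6 lower, beside 255 of all 5269, and the median of all genes moved by 0.13 there. SFP1 at 30 min then had 0.0745. With the culture as a replicate block, 39, 40, 37 and 40 genes were higher from 3 to 30 min, 26, 22, 21 and 17 from 60 to 300 min, and 10 lower at 300 min against 30 min, so that the block moved no count by over 1.5 times, and of 110 single values 1 gained its call and none lost it. The deposited table, 1 loess curve per array, normexp correction, the filter on dim probes and, for the later steps, all 18 arrays kept every count within 1.5 times. With 2 cultures a time, a p-value rests on few arrays. The search for promoter elements was not run.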
